A study of Mus musculus with 6 samples.

Results

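The collagen genes are the genes of the collagen chains, taken here as every listed gene whose symbol begins with Col, a number, the letter a and a second number. The rule found 33 genes of the 16701 in the authors' deposited table, all of them protein-coding and all of them genes of collagen chains. They were compared in luminal epithelial cells of the mouse mammary gland, the cells that line the ducts and make milk, in a comparison of Ocln knockout mice with wild-type controls. Ocln encodes occludin, a membrane protein of tight junctions. Each genotype had 3 libraries of polyadenylated RNA from mice of 7 weeks. The labels give the knockout group as Ocln-/- and the control group as WT, and name no other allele, no treatment and no agent in either group. The strain, the design of the knockout allele, whether it acts in the whole animal, how the luminal cells were separated, and whether each library came from 1 mouse are not stated in the sources used here. Spread between these libraries, which can be partly technical, is what the p-values measure.

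Collagen chains coil around one another into trimers, and the kind of chain decides what the trimer builds. Fibrillar collagens form the rope-like fibrils of the stroma, type IV collagen forms the sheet of the basement membrane that epithelial cells sit on, and the remaining types coat fibrils, anchor them, form fine networks or span the cell membrane. In the mammary gland the basement membrane separates the epithelium from the stroma, and luminal cells respond to it through receptors for matrix proteins. Fibroblasts, endothelial cells, pericytes and myoepithelial cells are known as major makers of collagens.

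No value per library was used here, so each gene has 1 mean level over all 6 libraries, in normalized counts, and 1 log2 fold change of knockout over control with its standard error (SE), all as deposited. The direction, knockout over control, follows the name of that table. The depth of each library is unknown. A gene is said to have fallen or risen where its DESeq2 p-value, adjusted over all genes of the authors' deposited table, was under 0.05. Ocln itself stood at 44.9 percent of the control level (log2 fold change -1.15 ± 0.16 SE by the authors' deposited table). The keratin genes Krt18 and Krt8, which define luminal cells, had mean levels of 84084 and 61719 by the authors' deposited table. The basal keratin genes Krt5, Krt14 and Krt17 had 116, 216 and 278. The 14 listed basal and myoepithelial markers ranged from 15.9 to 2966 in mean level, with a median of 197.

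Among the 33 collagen genes 2 fell and 0 rose in the knockout. The falls were Col9a1, a chain of type IX collagen, and Col4a1, a chain of the basement membrane. Over all listed genes 1.08 percent passed the same test, 0.275 percent in the downward direction and 0.808 percent in the upward direction. At an unadjusted p under 0.05, 5 collagen genes were lower and 0 higher, against 9.07 percent of all genes, 3.83 percent lower and 5.23 percent higher. The sign of the log2 fold change was negative for 21 members and positive for 12. The median over the members was -0.05, beside -0.01 over all genes.

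**Figure D1:**
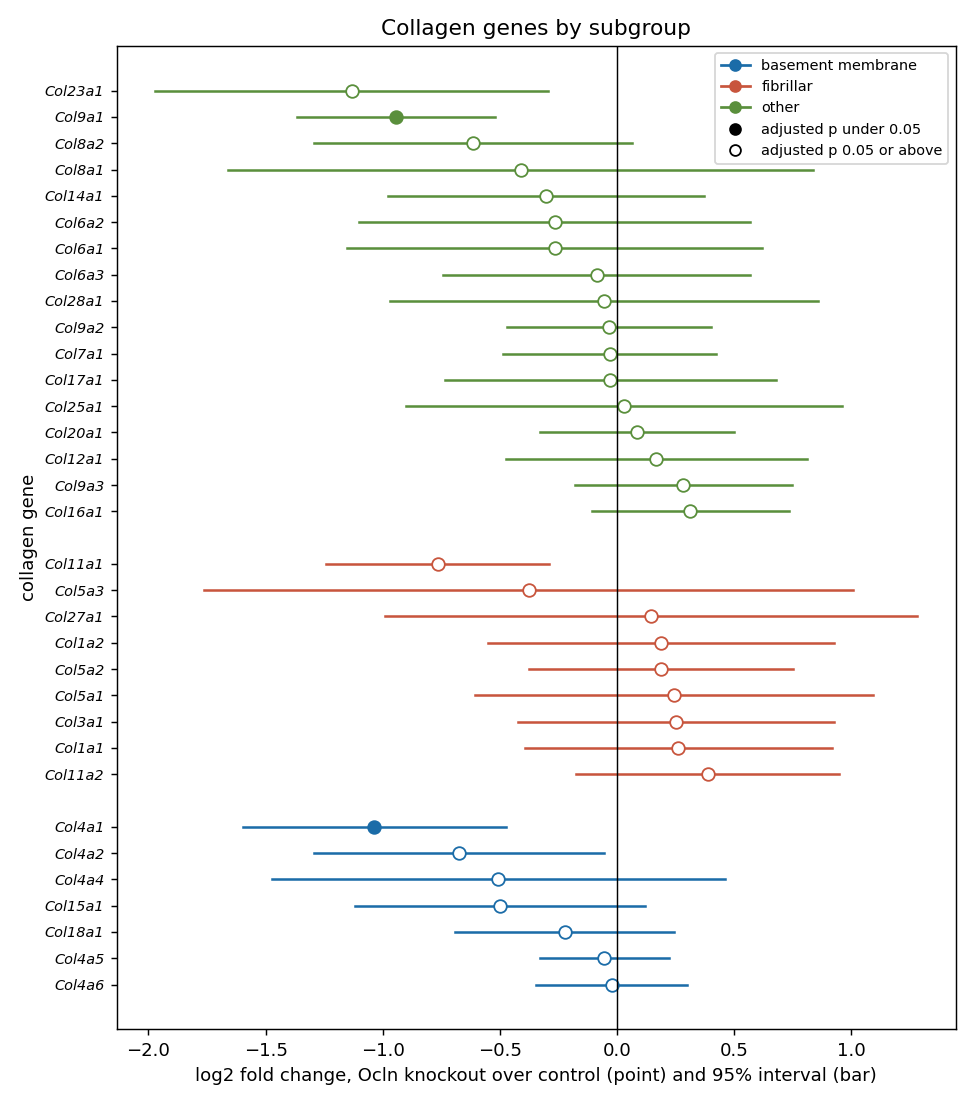
Log2 fold change of knockout over control for each of the 33 collagen genes (points) with its 95 percent interval (bars), in the subgroups basement membrane, fibrillar and other, with filled points for an adjusted p under 0.05. Col4a1 and Col9a1 are the filled points, and all 7 basement membrane genes lie to the left of 0 while 7 of 9 fibrillar genes lie to the right.

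Col9a1 had the smallest p of the members. Its mean level was 658 normalized counts, and the authors' deposited table gives -0.94 ± 0.22 as its log2 fold change (SE, DESeq2 adjusted p = 0.00281). The knockout thus had 52.0 percent of the control level (95 percent interval 38.8 to 69.6). The authors' own call for this gene in the deposited table is Stable, since their calls combine an unadjusted p under 0.05 with a fold change that reaches at least 1.01 on the log2 scale. The gene lies on the plus strand of chromosome 1, at 24177610 to 24252684 (GRCm38), where RefSeq places 2 transcript starts, the second within an intron of the longer transcript. The deposited value joins reads of both forms and does not show which of them was lower.

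Type IX collagen sits on the surface of fibrils of types II and XI and is best known from cartilage, where the products of Col9a1, Col9a2 and Col9a3 form 1 trimer. The partner chains did not pass. By the authors' deposited table Col9a2 stood at -0.03 ± 0.22 (97.7 percent of control, interval 72.2 to 132.1) and Col9a3 at 0.28 ± 0.24 (121.7 percent, interval 88.4 to 167.6). The interval of Col9a1, from -1.37 to -0.52 on the log2 scale, has no overlap with either of theirs. The chains were measured in the same libraries, so intervals without overlap are a description, and the difference between chains was not tested. Per kilobase of transcript, the mean levels were 172 normalized counts for Col9a1, 287 for Col9a2 and 293 for Col9a3, so Col9a1 was the lowest of the chains.

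Col11a1 encodes a chain of type XI, a minor fibrillar collagen found inside fibrils, and was the member just outside the threshold. With a mean level of 1041, the authors' deposited table gives it -0.77 ± 0.24 (SE, DESeq2 adjusted p = 0.0952, unadjusted p = 0.00158), or 58.8 percent of control with an interval of 42.3 to 81.7. It is on the plus strand of chromosome 3, from 114030540 to 114220718. Once the median score of genes of like transcript length was taken out, Col11a1 passed too (DESeq2 score, adjusted p = 0.0376). Its partner Col11a2 lay on the other side of 0, at 0.39 ± 0.29 by the authors' deposited table. The intervals of the pair do not overlap, and the difference between them was not tested. Per kilobase, Col11a1 was 7.20 times as abundant as Col11a2 in mean level.

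The sequences before the starts of Col9a1 and Col11a1 are shown because these chains of cartilage-type fibrils had the smallest p-values outside type IV. They come from RefSeq on GRCm38.p6, 5′ to 3′ on the plus strand, with bases of annotated exons left out, and capitals mark matches to the motifs searched.
Col9a1, longer transcript, chr1:24177360-24177588: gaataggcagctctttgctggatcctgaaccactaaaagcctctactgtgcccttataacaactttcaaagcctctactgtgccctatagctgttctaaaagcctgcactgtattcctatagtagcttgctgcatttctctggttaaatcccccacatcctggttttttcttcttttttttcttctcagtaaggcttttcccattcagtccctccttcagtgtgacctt
Col9a1, shorter transcript, chr1:24194953-24195186: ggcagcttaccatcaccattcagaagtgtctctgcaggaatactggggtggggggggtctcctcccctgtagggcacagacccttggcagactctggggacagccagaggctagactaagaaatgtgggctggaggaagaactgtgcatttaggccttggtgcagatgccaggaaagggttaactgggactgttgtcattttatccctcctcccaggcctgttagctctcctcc
Col11a1, chr3:114030290-114030478: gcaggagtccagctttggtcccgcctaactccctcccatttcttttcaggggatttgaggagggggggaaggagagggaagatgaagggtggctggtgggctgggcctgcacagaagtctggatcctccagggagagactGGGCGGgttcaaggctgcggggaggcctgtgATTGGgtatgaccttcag

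The motifs were the GC box GGGCGG, the CCAAT box CCAAT, the TATA box TATAAA and 2 cores of the sites bound by SOX factors, ACAAAG and ACAATG, each on both strands and none containing another. In the stretches shown, Col11a1 holds 1 GC box, 110 bases before its start, and 1 CCAAT box, 79 bases before it, and the 2 stretches of Col9a1 hold none of the motifs. The stretch of the longer Col9a1 transcript has 43.2 percent G and C, against 60.3 percent for Col11a1. RefSeq windows, which run from 250 bases before a start to 50 after it, were found for 28 of the 33 members, 31 windows in all. A GC box stands in 64.5 percent of these and in 35.7 percent of all 32851 windows of the genome table, a CCAAT box in 38.7 against 37.4 percent, and a TATA box in 9.68 against 13.6 percent. The core ACAAAG stands in 12.9 percent of member windows and 18.7 percent of all windows, and ACAATG in 3.23 and 12.6 percent. The set of all windows was not limited to the genes listed here, so the member shares were not compared with those of detected genes. These are counts of letters, and no binding was measured.

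Basement membrane collagens were taken as type IV with types XV and XVIII, which lie in or beside basement membranes. All 7 listed members were below 0 on the log2 scale (median -0.50), and 1 of them, Col4a1, fell. By comparison 51.2 percent of all genes were negative, and 0.275 percent fell. The fall of Col4a1 was -1.04 ± 0.29 at a mean level of 1330 by the authors' deposited table (SE, DESeq2 adjusted p = 0.0329), which is 48.8 percent of control with an interval of 33.0 to 72.0. It was the member just inside the threshold, and it no longer passed when the scores were scaled down by their inflation (adjusted p = 0.0953).

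Type IV chains come in head-to-head gene pairs that start from a shared region, and values are given pair by pair. Col4a1 and Col4a2, whose products form the common trimer of basement membranes in most tissues, lie on chromosome 8, with starts that overlap by 22 bases in the GENCODE annotation, Col4a1 on the minus strand from 11198423 to 11312826 and Col4a2 on the plus strand from 11312805 to 11449287. Col4a2 stood at -0.68 ± 0.32 with a mean level of 566 by the authors' deposited table and missed the threshold (DESeq2 adjusted p = 0.486, unadjusted p = 0.0327). It stood at 62.6 percent of control, with an interval of 40.8 to 96.2. Whether reads were counted by strand is not given in the sources used here, and reads over the overlapping first bases of this pair cannot be assigned without it.

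Col4a5 and Col4a6 form the other listed pair, on the X chromosome, with 1308 bases between them. Their products are chains of a trimer found in the basement membranes of many epithelia, the mammary gland included. Per length they were more abundant than the first pair, with 770 and 653 normalized counts per kilobase against 201 for Col4a1 and 87.8 for Col4a2. The authors' deposited table puts Col4a5 at -0.05 ± 0.14 and Col4a6 at -0.02 ± 0.16. These are among the most precise values of the members, and their intervals limit the level in the knockout to between 79.5 and 116.5 percent of control for Col4a5 and between 78.8 and 122.9 percent for Col4a6. The interval of Col4a1 lies wholly below both, while that of Col4a2 overlaps both. Differences between these chains were not tested. Col4a4, a chain of the trimer known from kidney, had 2.01 normalized counts per kilobase and a value of -0.51 ± 0.49 by the authors' deposited table.

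Col15a1 and Col18a1, whose products carry sugar chains and can release antiangiogenic fragments, completed the subgroup. Their values were -0.50 ± 0.32 and -0.22 ± 0.24 by the authors' deposited table, at mean levels of only 65.3 and 135, and neither passed. With type IV alone as the subgroup, its 5 members had a median of -0.51.

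Fibrillar collagens had the opposite majority sign and 0 members past an adjusted DESeq2 p of 0.05. Among all genes 1.08 percent passed that threshold, and 3.83 percent were lower and 5.23 percent higher at an unadjusted p under 0.05. Of 9 listed genes 7 had a positive log2 fold change, and the median was 0.19. At an unadjusted p under 0.05 there were 0 higher genes and 1 lower gene, Col11a1. Split by genotype from each gene's mean and fold change, their summed level was lower in the knockout, about 1971 normalized counts against 2327 in the controls. Col11a1, at 1041, had the highest mean level of the 9. For basement membrane collagens the sums were about 10743 and 12231. These sums carry no error and were not tested. The main stromal chains were Col1a1 (0.26 ± 0.33 SE), Col1a2 (0.19 ± 0.38) and Col3a1 (0.25 ± 0.34) by the authors' deposited table. Each of these estimates is smaller than its SE. The intervals of Col1a1, Col1a2 and Col3a1 run from 68.3 to 190.2 percent of control from the lowest bound to the highest, so a change of moderate size was not detectable at this precision.

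The type V chains, which start fibrils and set their width, were Col5a1 (0.24 ± 0.43), Col5a2 (0.19 ± 0.29) and Col5a3 (-0.38 ± 0.71) by the authors' deposited table, and Col27a1 stood at 0.15 ± 0.58. Their levels were low, from 13.5 to 89.9 normalized counts. Col3a1 and Col5a2 are tail-to-tail neighbours on chromosome 1, with 24614 bases between them, and their values differed by only 0.06. The difference between the basement membrane and fibrillar subgroups was not tested, because no values per library were at hand to measure how the members vary together.

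Levels differed widely between the members. The 5 genes with the highest mean levels, Col6a3, Col8a1, Col4a5, Col16a1 and Col4a6, held 78.1 percent of the summed mean level of the 33 members. Per kilobase of transcript the order was Col8a1 at 1380 normalized counts, Col16a1 at 921, Col4a5 at 770, Col6a3 at 766 and Col4a6 at 653. Col3a1 and Col1a1, the classical fibroblast chains, had 56.1 and 49.8. These levels are means over both genotypes without an error per gene, so neighbours in this order cannot be told apart by their spread.

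**Figure D2:**
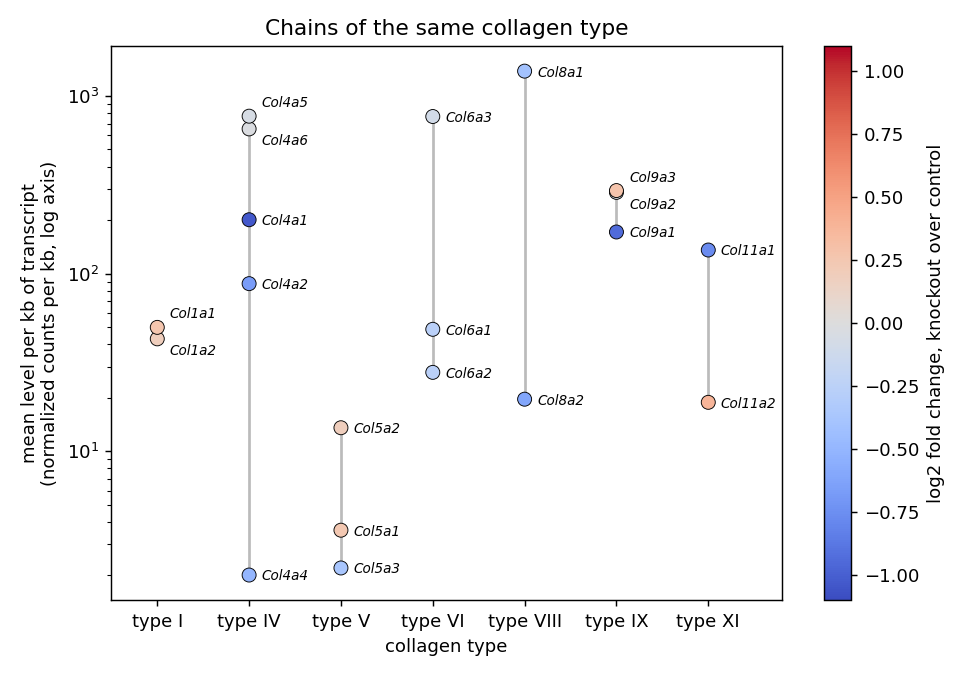
Mean level per kilobase of transcript (normalized counts per kb, log axis) of the chains of each collagen type with more than 1 listed chain, coloured by the log2 fold change of knockout over control. Chains of type I lie close together, and those of types IV, VI and VIII lie far apart in level. In types IX and XI a blue chain (lower in the knockout) stands beside an orange one.

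Chains of the same collagen type were not always present at like levels. Col1a1 and Col1a2 differed by 1.16 times per kilobase. The widest gap was in type IV, where Col4a5 was 383 times as abundant as Col4a4. In type VI collagen, which forms beaded filaments around cells, Col6a3 was 27.6 times as abundant as Col6a2, and Col6a1 had 48.6 normalized counts per kilobase. In type VIII, a short-chain collagen that forms networks beneath endothelial and other cell layers, Col8a1 was 70.3 times as abundant as Col8a2. Lengths are those of the longest GENCODE transcript, which sets the scale of these ratios.

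Type VI chains had values of -0.27 ± 0.45 for Col6a1, -0.27 ± 0.43 for Col6a2 and -0.09 ± 0.33 for Col6a3 by the authors' deposited table, and none passed. Col6a1 and Col6a2 are neighbours on chromosome 10, 85161 bases apart on the same strand. Their values agree to within 0.01, which is far less than either SE.

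Col8a1 was the least certain of the abundant members. Its log2 fold change was -0.41 ± 0.64 at a mean level of 7050 by the authors' deposited table, and its interval runs from 31.7 to 178.6 percent of control. The SE is 3.65 times the median SE of the 500 genes nearest in mean level, and 3 of those 500 had an SE at least as large. In such a model an SE of this size reflects a wide spread between libraries of the same genotype, and which libraries stood apart was not seen here. Col8a2 was at -0.61 ± 0.35 by the authors' deposited table (unadjusted DESeq2 p = 0.075).

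Wide errors were common among the collagens. Of the 33 members, 10 had an SE above percentile 90 of the genes nearest in mean level, and 22 had one above the median of such genes. The 10 were Col1a1, Col1a2 and Col3a1, all chains of type VI, Col8a1, Col12a1, Col4a1 and Col4a2. Col4a5, at percentile 7.8, and Col18a1, at percentile 9.8, were among the most even. The fall of Col4a1 thus rests on an SE of 0.29 where genes of like level have a median of 0.17. Col9a1 stood at percentile 75.6.

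**Figure D3:**
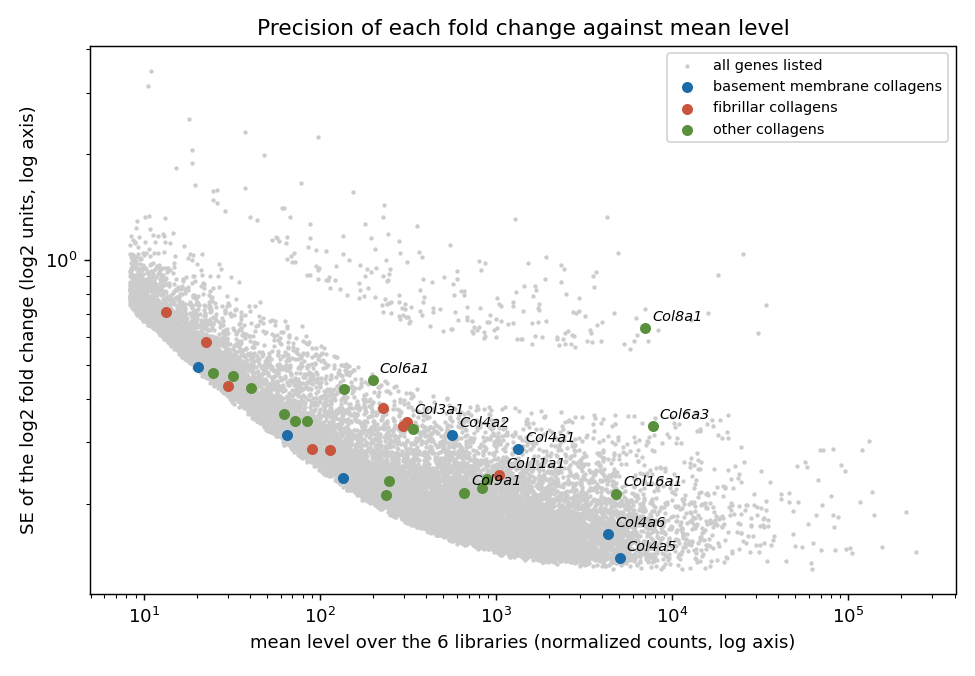
SE of the log2 fold change (log2 units, log axis) against mean level (normalized counts, log axis) for all 16701 genes (grey) and the collagen genes by subgroup (coloured). Col8a1 lies far above genes of its level with an SE of 0.64, Col4a1 and Col4a2 lie in the upper part of the cloud, and Col4a5 lies near its lower edge.

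Collagens that coat fibrils, called FACIT collagens, comprised 7 listed genes including type IX, of which Col9a1 alone fell. The share that fell over all genes was 0.275 percent. Col16a1 had the highest level of these, 4797 normalized counts, and did not pass, with 0.31 ± 0.21 by the authors' deposited table. Its interval runs from 92.9 to 166.2 percent of control. Col12a1 (0.17 ± 0.33), Col14a1 (-0.30 ± 0.34) and Col20a1 (0.08 ± 0.21) did not pass by the authors' deposited table either.

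Collagens that span the membrane were listed at low levels. Col23a1 had the lowest log2 fold change of all members by the authors' deposited table, -1.13 ± 0.43, with a mean level of 40.9. It carries the authors' own call Down in the deposited table, with an unadjusted p of 0.00819, but had an adjusted p of 0.264. By the authors' calls 2 collagens are Down, Col4a1 and Col23a1, where 0.988 percent of all genes carry that call, and 0 are Up, against 1.8 percent of all genes. Col17a1, a hemidesmosome chain that holds basal cells to the basement membrane, stood at -0.03 ± 0.36 by the authors' deposited table, Col25a1 at 0.03 ± 0.47 and Col7a1, the anchoring fibril chain, at -0.03 ± 0.23. Col28a1 stood at -0.06 ± 0.47 by the authors' deposited table.

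For 19 of the 33 members the 95 percent interval excluded a 2-fold change in both directions, Col4a5, Col4a6, Col16a1, Col6a3 and Col3a1 among them. For the other members, the 2 that fell included, the interval reached a 2-fold change in at least 1 direction. None of the members lies on chromosome 13, which carries Ocln, and the 33 genes are spread over 14 chromosomes.

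Genes that make, export and cross-link collagen had 0 members with an adjusted DESeq2 p under 0.05. Over all genes 1.08 percent passed, and 9.07 percent had an unadjusted p under 0.05. In lists this short, 0 called is near the share over all genes. Of 20 listed genes of collagen hydroxylation, glycosylation and folding, 0 passed and the median log2 fold change was -0.11. Serpinh1, the collagen-specific chaperone HSP47, stood at 0.07 ± 0.25 by the authors' deposited table, and P4hb, a subunit of prolyl hydroxylase, at -0.11 ± 0.20. At an unadjusted p under 0.05, 1 gene was lower, P3h2, a prolyl 3-hydroxylase known to act on type IV collagen (-0.87 ± 0.32 by the authors' deposited table, DESeq2 adjusted p = 0.236), and 1 was higher, Colgalt1, a collagen galactosyltransferase (0.43 ± 0.21). The 12 genes of procollagen export had a median of 0.01, with 0 at an adjusted or unadjusted DESeq2 p under 0.05, and Mia3, the cargo receptor TANGO1, stood at 0.02 ± 0.19 by the authors' deposited table.

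Of 12 genes of procollagen processing and cross-linking, 0 passed, and 3 were lower and 0 higher at an unadjusted DESeq2 p under 0.05. The shares of all genes at that threshold were 3.83 percent lower and 5.23 percent higher. The 3 lower genes are named below. They were Pcolce2, an enhancer of procollagen C-proteinase (-1.20 ± 0.46), the lysyl oxidase-like gene Loxl3 (-0.91 ± 0.40) and Adamts2, which removes procollagen N-propeptides (-0.68 ± 0.31), at mean levels of 52.8, 38.6 and 78.8 by the authors' deposited table. Pcolce2 carries the authors' own call Down. Bmp1, the main C-proteinase, stood at -0.35 ± 0.20 and Tgm2, a transglutaminase, at 0.02 ± 0.25 by the authors' deposited table.

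Fibril-associated proteoglycans and organisers were the pathway list with members past an adjusted DESeq2 p of 0.05, which 1.08 percent of all genes passed. Among 23 listed genes Thbs1, the matrix protein thrombospondin-1, rose (1.39 ± 0.29 by the authors' deposited table, 2.63 times the control level) and Dcn, the fibril-binding proteoglycan decorin, fell (-1.36 ± 0.35, 39.0 percent of control, DESeq2 adjusted p = 0.0134). The median of this list was -0.22. Thbs2 (-1.64 ± 0.59) and Tnxb (1.21 ± 0.50) did not pass but carry the authors' own calls Down and Up in the deposited table, at mean levels of 20.2 and 30.1. Prelp, with the next highest level, was at -0.46 ± 0.36 by the authors' deposited table.

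Receptors for collagen numbered 10 listed genes, with 0 called by DESeq2, 2 higher at an unadjusted p under 0.05 (Itga2 and Sdc1) and a median of 0.36. Of all genes, 1.08 percent were called and 5.23 percent were higher at an unadjusted p under 0.05. Itga2, the collagen-binding integrin subunit of epithelial cells and platelets, was the nearest to the threshold, at 0.99 ± 0.29 by the authors' deposited table (DESeq2 adjusted p = 0.0609). The discoidin receptor gene Ddr1, which epithelial cells use, was at -0.22 ± 0.19, and Ddr2, its stromal relative, at 0.54 ± 0.63 by the authors' deposited table. Itgb1, the partner of the collagen-binding subunits, was at -0.00 ± 0.13 and Itga1 at 0.21 ± 0.35.

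The other building blocks of the basement membrane had 0 members past an adjusted DESeq2 p of 0.05. For comparison, 1.08 percent of all genes passed, and 3.83 percent were lower and 5.23 percent higher at an unadjusted p under 0.05. Of 18 listed non-collagen genes 0 passed, 8 were negative and the median was 0.04. Lama5, the laminin chain with the highest level, stood at -0.10 ± 0.16, and Agrn, the gene of agrin, at 0.35 ± 0.22 by the authors' deposited table. Lamb1 (-0.72 ± 0.27), the integrin ligand gene Npnt (-0.69 ± 0.31) and Hspg2, the gene of perlecan (0.74 ± 0.34), reached an unadjusted DESeq2 p under 0.05 by the authors' deposited table. Nid1, which links laminin to type IV collagen, was at -0.20 ± 0.27. The 13 collagen-degrading proteases and inhibitors had a median of 0.25 with 0 called by DESeq2. At an unadjusted p, 4 were higher, Mmp9 and Ctsk at mean levels of 16.4 and 18.9 and the inhibitor genes Timp1 (0.72 ± 0.34) and Timp3 (0.49 ± 0.23). Mmp9 and Ctsk carry the authors' own call Up.

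**Figure D4:**
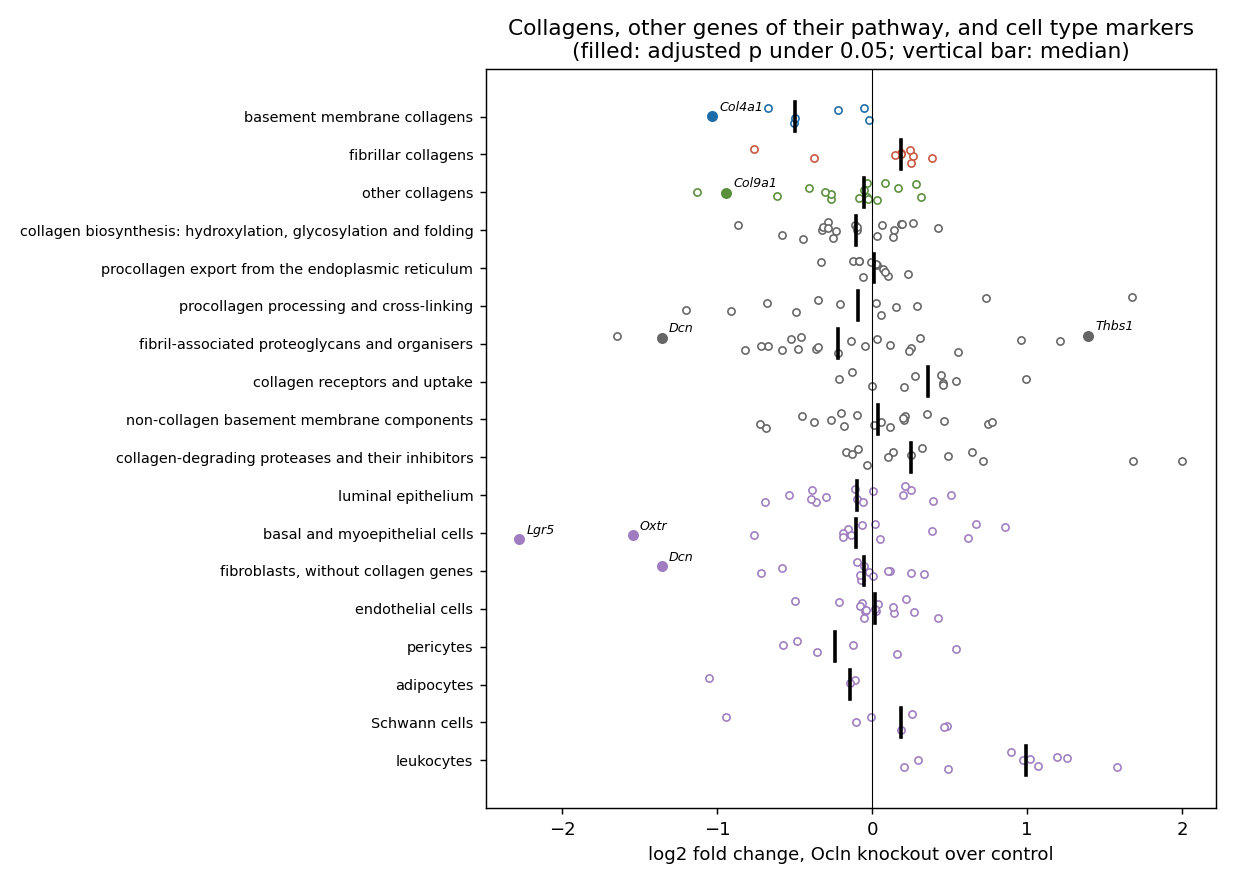
Log2 fold change of knockout over control for each gene (points, filled for an adjusted p under 0.05) of the collagen subgroups, of 7 lists of other collagen pathway genes (grey) and of 8 lists of cell type markers (purple), with the median of each list as a vertical bar. The leukocyte markers lie wholly to the right of 0 with a median of 0.995, and the filled points outside the collagens are Dcn, Thbs1, Lgr5 and Oxtr.

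Markers of cells other than luminal cells were present, and fewer cells of a type cannot be told apart from less RNA per cell in these bulk samples. As a background, 0.275 percent of all genes fell, 0.808 percent rose and 9.07 percent had an unadjusted p under 0.05. Of 13 listed fibroblast markers other than collagens 1 fell, Dcn, and 0 rose, with a median of -0.06. Pdgfra, a defining receptor of fibroblasts, stood at 0.01 ± 0.30 at a mean level of 196 by the authors' deposited table, and Pdgfrb at -0.10 ± 0.52. The summed level of the list, split by genotype from each gene's mean and fold change, was about 1220 normalized counts in the controls and 883 in the knockout, and Dcn alone went from about 557 to 217. Of 15 endothelial markers 0 passed by DESeq2 and 0 had an unadjusted p under 0.05, with summed levels of 5576 and 5482. The 6 listed pericyte markers had a median of -0.24, with 0 called and 0 at an unadjusted DESeq2 p under 0.05.

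Among 14 basal and myoepithelial markers 2 fell, the stem cell receptor gene Lgr5 (-2.28 ± 0.42) and the oxytocin receptor gene Oxtr (-1.55 ± 0.38 by the authors' deposited table), while Krt5 (-0.19 ± 0.39) and Krt14 (-0.14 ± 0.30) did not pass. Lgr6 (0.62 ± 0.19, DESeq2 adjusted p = 0.0742) and Krt17 (0.86 ± 0.42) did not pass either, though by the authors' deposited table both were higher at an unadjusted p under 0.05. The median of that list was -0.10, with 8 negative and 6 positive members. In the whole set of genes 0.275 percent fell, and 3.83 percent were lower and 5.23 percent higher at an unadjusted p under 0.05. Adipocyte markers had 3 listed genes of 10 and Schwann cell markers 7 of 10, with medians of -0.14 and 0.18. By DESeq2 0 of them passed, and 1, Sox10, was higher at an unadjusted p under 0.05. All 10 listed leukocyte markers were positive, with a median of 0.995, 0 past an adjusted DESeq2 p of 0.05 and 2 higher at an unadjusted p under 0.05, Lyz2 and Cd52. Cd52 carries the authors' own call Up. Their summed level was about 1548 normalized counts in the controls and 2857 in the knockout. The part of any of these cells in the collagen values was not tested.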

How the data were processed

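RNA of 3 control and 3 Ocln knockout libraries was compared. The submitters' processing notes name DESeq2 and mm10 (GRCm38), while the aligner, the counter, the annotation and the formula were not given in the sources used here. Columns of the authors' table, per the file headers, are a mean level (a signal in normalized counts), the log2 fold change with its SE, a Wald score, a p-value and an adjusted p-value; their call of Up, Down or Stable is a value of another kind. The deposited score equals log2 fold change over SE to within 2.6e-07. No new test per gene was made, and the planned count model could not be fitted.

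Members, subgroups and lists were chosen with earlier results of these data known. Intervals are 1.96 SE on either side. Levels per kilobase use the longest transcript of GENCODE M21, matched for 16463 genes. Group sums per genotype are approximate, from mean level and fold change with equal group sizes. Alternatives were adjusted p under 0.01, a log2 fold change of 1 or more in size, a mean level of at least 50, the authors' calls, unadjusted p, scores over the root of their inflation factor (1.18), and scores less their median in 20 length bins; both recomputations were tested on simulated data. Named members passed, had unadjusted p under 0.05, stood highest in level or at the ends of a subgroup, or formed gene pairs. Further members are named to complete their type or kind. The list genes named were called, most abundant, at an unadjusted p under 0.05, or picked for their known role. Python 3.11.15, pandas 2.3.3 and scipy 1.17.1 were used.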

Additional observations from a re-analysis of the deposited data

How the results depend on the processing

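Against 2 collagen genes lower, there was 1 at an adjusted p under 0.01 (Col9a1), 1 with a log2 change of 1 or more in size (Col4a1), 1 after division by the inflation (Col9a1) and 5 at an unadjusted p under 0.05. The count was 2 with a mean level of at least 50, 2 by the authors' calls (Col4a1 and Col23a1) and 3 with the length trend taken out, where Col11a1 was added. Over all listed genes the number lower was 46 in the main setting, 26 at an adjusted p under 0.01 and 34 with the minimum size. It was 30 after division by the inflation, 640 at an unadjusted p under 0.05 and 42 with a mean level of at least 50. By the authors' calls it was 165, and with the length trend taken out 49. Basement membrane collagens, 1 lower, had 0 at an adjusted p under 0.01 and 0 after division by the inflation (DESeq2 scores), and 2 at an unadjusted p under 0.05. Fibrillar collagens, 0 lower by DESeq2, had 1 with the length trend taken out and 1 at an unadjusted p under 0.05. The remaining collagens, 1 lower, had 0 with that minimum size and 2 at an unadjusted p under 0.05. The number of collagen genes higher was 0 in each of these 7 settings, in which 81 to 874 of all genes were higher. Medians of the subgroups kept their sign with type IV alone as basement membrane and with a mean level of at least 50. No paired analysis was possible because the table holds no values per library, and leaving out a replicate was not run for the same reason. Depth per library is unknown, and 7 members had a mean level under 50.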
